A study of Homo sapiens with 3 samples.

Results

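The genes described here encode enzymes that cut the extracellular matrix and the proteins that hold those enzymes in check. They are the collagenase MMP1, the gelatinase MMP2, the membrane-anchored metalloproteinases MMP14 and MMP15, the tissue inhibitors of metalloproteinases TIMP1, TIMP2 and TIMP3, the urokinase plasminogen activator PLAU and its receptor PLAUR. They were chosen by gene symbol, and the choice took account of measured values, because MMP1 moved in opposite directions in the comparisons below. Those movements are therefore given as descriptions. Of the 9 genes, 7 had a row among the 14949 genes of the deposited table, and MMP2 and TIMP3 had none. Every gene with a row reached at least 0.503 CPM (counts scaled to the library total) in at least 1 library, and a gene could enter the table through its highest library alone.

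The transcripts were measured by RNA sequencing in MIAPaCa-2, an established cell line of human pancreatic cancer. The 3 groups were untreated sh-CTL cells, with a control short hairpin RNA, called the control below, untreated sh-METTL3 cells, with a hairpin against METTL3, called the knockdown, and sh-CTL + PLK1i cells, sh-CTL cells kept for 24 h with NMS-P937, an inhibitor of PLK1, at 80 nM, called the treated library. Where a sentence gives 3 values without naming groups, they stand in that order, and where it gives 2 changes, the knockdown comes first. METTL3 is the catalytic subunit of the enzyme complex that writes N6-methyladenosine on mRNA, and PLK1 is a mitotic kinase. Each group was 1 library of a hairpin-bearing line, and whether that line was a single clone was not given in the sources used here. No difference could be checked against replicates, no p-value was computed, and the counting intervals below compare libraries, not conditions. Since the same control library enters both comparisons, their values are set side by side and no relation between them is given as a result.

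Matrix metalloproteinases are zinc enzymes made as inactive proenzymes. MMP1 opens fibrillar collagen, which other members such as the gelatinases then digest further. MMP14 sits on the cell surface and, with TIMP2 as an adaptor, activates pro-MMP2, while TIMP proteins in excess block the active sites. Urokinase bound to its receptor turns plasminogen into plasmin, a serine protease that degrades matrix and can activate several pro-metalloproteinases, and serpins inhibit urokinase. Pancreatic cancer is known for a dense collagen-rich stroma, in which both systems are widely studied.

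The table held log2 values from which whole reads were recovered. The reads in listed genes came to between 37449315 and 47727515 per library, and 3 reads, taken as the floor, equalled between 0.0629 and 0.0801 CPM. The METTL3 transcript in the knockdown stood at 41.9% of its level in the control, and in the treated library at 98.7%. Of 8 pancreatic ductal and epithelial markers, KRT8, KRT18, KRT19 and SOX9 had rows, with a summed normalized count of 158452 in the control, 188546 in the knockdown and 147520 in the treated library. In the knockdown the log2 changes of KRT8, KRT18 and KRT19 were 0.26, 0.27 and 0.43, whereas SOX9 was lower, at -0.18. EPCAM, KRT7, KRT17 and CDH1 had no row. None of the 4 endothelial and 5 acinar markers had a row. Of 6 macrophage and leukocyte markers 3 had rows, CD68, CD14 and LYZ, and their sum ran from 1911 in the control to 3436 in the knockdown, with PTPRC, CSF1R and CD3E without a row. Most of that sum was CD68, with normalized counts of 1755, 3243 and 2647. LYZ had log2 changes of 0.43 and -0.05. CD14, with 37, 43 and 17 reads, went the other way, at -0.11 (-0.78 to 0.56) and -1.41 (-2.38 to -0.60).

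The inhibitors and the urokinase system dominated this gene group at the transcript level. Together the 7 genes took 0.129% of the reads in the control, 0.149% in the knockdown and 0.134% in the treated library. TIMP1 and TIMP2 alone made up 80.0%, 80.8% and 76.6% of those reads, and the 3 metalloproteinases 2.26%, 1.58% and 2.62%. Levels were then compared between genes as normalized count per kilobase of all annotated exons, where a normalized count is the read number divided by the size factor of the library. In the control the level per kilobase was 16795 for TIMP1, 3352 for TIMP2, 2624 for PLAU, 510 for PLAUR, 164 for MMP15, 128 for MMP1 and 49.2 for MMP14. TIMP1 was first and a metalloproteinase last in every library. MMP1 stood between MMP15 and MMP14 in the control, was last in the knockdown at 1.69 and passed MMP15 in the treated library at 307. With the longest annotated transcript as the length, MMP1 passed MMP15 in the control and TIMP2 passed PLAU in the treated library, so the order within those pairs is not settled. By that length the control level was 1413 for PLAUR and 5700 for TIMP2, and ratios with either gene change in size. Without replicates the spread behind the remaining order is unknown.

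**Figure D1:**
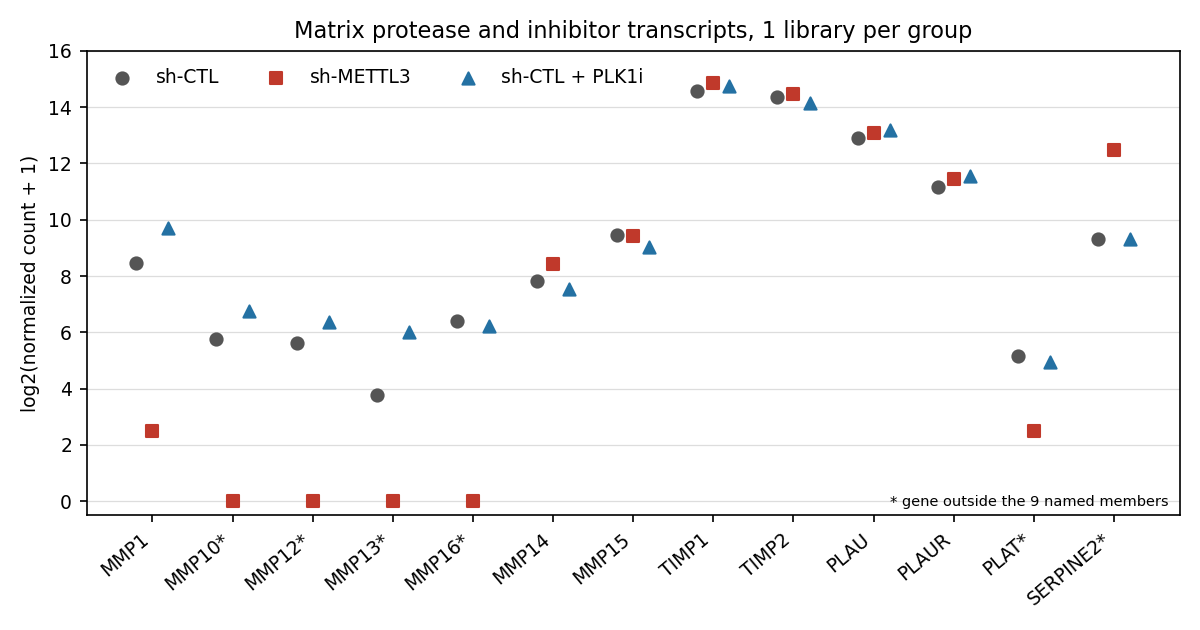
Level of each gene as log2(normalized count + 1), for sh-CTL (circles), sh-METTL3 (squares) and sh-CTL + PLK1i (triangles), with 1 library per group and genes outside the 9 named ones starred. MMP1 has normalized counts of 351, 4.63 and 841, whereas the points of TIMP1, TIMP2, PLAU and PLAUR lie close together, and MMP10, MMP12, MMP13 and MMP16 are at 0 in sh-METTL3.

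MMP1, the interstitial collagenase, was the one gene of the group that differed by 2-fold or more, and it did so in both comparisons. MMP1 (ENSG00000196611; GRCh37 chromosome 11, 102660132 to 102668891, minus strand) had 301 reads in the control, 5 in the knockdown and 914 in the treated library. The normalized counts were 351, 4.63 and 841. Thus the transcript was close to the floor in the knockdown and highest in the treated library. On the log2(normalized count + 1) scale the change in the knockdown was -5.97, and the level was 75.7-fold lower than in the control. The 95% counting interval, here and below for the log2 ratio of normalized counts without the added 1, was -7.88 to -5.00. Only 10 of the 14949 genes, MMP1 included, had a change that low. In the treated library the change was 1.26 (1.07 to 1.45), a level 2.40-fold higher, and 123 genes had a change that high. Genes that were at least 2-fold lower in the knockdown and at least 2-fold higher in the treated library numbered 10, or 0.0669% of the table, and in 4 of them the normalized count averaged 50 or more. Apart from MMP1 the genes with a symbol among these 10 were MMP13, the dual-specificity phosphatase DUSP8, the histone gene H4C15, LINC00941 and LINC01733, which were named after their values were seen. MMP13, LINC00941, LINC01733 and some of those without a symbol reached 0.503 CPM in the treated library only, and entered the table through it. MMP1 itself was chosen for this pattern, so nothing is read from the number of such genes. Histone genes such as H4C15 have near-identical copies, so its counts are uncertain.

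Across the group, the 2-fold calls came to 0 genes higher and 1 lower in the knockdown, while 3.42% of all genes in the table were at least 2-fold higher and 2.94% at least 2-fold lower. In the treated library 1 gene was higher and 0 were lower, against 1.39% and 1.13% of all genes. The counting interval lay above 0 for 5 of the 7 genes in the knockdown and below 0 for 1, against 27.1% and 28.2% of all genes. It lay above 0 for 4 and below 0 for 2 in the treated library, against 23.1% and 22.8%. These intervals are narrow for abundant genes, since they cover counting error only. The median change of the 7 genes was 0.17 in each comparison, beside 0.00 over all genes. Because the genes were chosen with these values known, nothing is read from the counts.

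**Figure D2:**
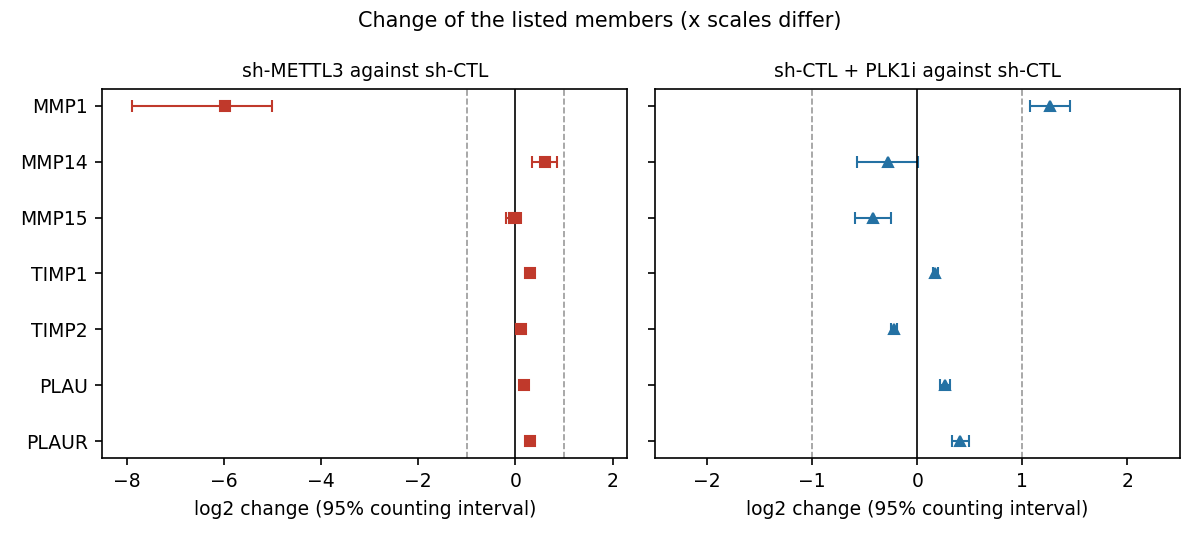
Log2 change of each of the 7 genes in sh-METTL3 (left) and sh-CTL + PLK1i (right) against sh-CTL, with bars for the 95% counting interval, dashed lines at 2-fold and different horizontal scales. MMP1 is at -5.97 on the left and 1.26 on the right, and the other 6 genes lie within 2-fold in both panels.

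The membrane-type metalloproteinases differed far less than MMP1. MMP14 (ENSG00000157227; chromosome 14, 23305769 to 23318250), the activator of pro-MMP2, had 195 reads in the control, 373 in the knockdown and 203 in the treated library, with normalized counts of 227, 346 and 187. It was highest in the knockdown, where MMP1 was lowest. Its change in the knockdown was 0.60 (0.35 to 0.86), or 1.52-fold higher, and in the treated library it was -0.28 (-0.57 to 0.01), an interval that holds 0. MMP15 (ENSG00000102996; chromosome 16, 58059658 to 58080805), a related membrane-anchored enzyme, had 595, 731 and 562 reads in the same order, with normalized counts of 694, 678 and 517. The levels in the control and the knockdown differed by less than counting error, at a change of -0.03 (-0.19 to 0.12), and the treated library was lower by a change of -0.42 (-0.59 to -0.25).

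Both inhibitors with a row were abundant and differed little. TIMP1 (ENSG00000102265; chromosome X, 47441807 to 47446188), a secreted inhibitor of most metalloproteinases, had 20827 reads in the control, 32166 in the knockdown and 29699 in the treated library, and its normalized counts were 24286, 29814 and 27341. Its change was 0.30 (0.27 to 0.32) in the knockdown and 0.17 (0.15 to 0.20) in the treated library. TIMP2 (ENSG00000035862; chromosome 17, 76849059 to 76921469), which both inhibits MMP14 and serves it as an adaptor, had 17850, 24361 and 19432 reads, and its normalized counts were 20815, 22580 and 17889. The change of TIMP2 was 0.12 (0.09 to 0.15) in the knockdown and -0.22 (-0.25 to -0.19) in the treated library, so the treated library had the most TIMP1 relative to TIMP2. Per kilobase, the ratio of TIMP1 to TIMP2 was 5.01 in the control, 5.67 in the knockdown and 6.56 in the treated library, or from 3.89 in the control to 5.10 in the treated library by the longest transcript. The MMP1 level per kilobase was 0.763% of that of TIMP1 in the control, 0.00821% in the knockdown and 1.63% in the treated library. MMP14 stood at 1.47%, 2.06% and 1.40% of TIMP2 in the same libraries, or 1.04% in the control and 1.45% in the knockdown by the longest transcript. Neither TIMP4 nor RECK, further metalloproteinase inhibitors, had a row.

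Urokinase and its receptor were somewhat higher in both libraries than in the control. PLAU (ENSG00000122861; chromosome 10, 75668935 to 75677254) had 6635 reads in the control, 9363 in the knockdown and 10081 in the treated library, and its normalized counts were 7737, 8679 and 9281. PLAUR (ENSG00000011422; chromosome 19, 44150247 to 44174699, minus strand) had 1951, 3002 and 3280 reads, and its normalized counts were 2275, 2783 and 3020. Enzyme and receptor thus had the same order of libraries, with the treated library on top. The changes of PLAU were 0.17 (0.12 to 0.21) and 0.26 (0.22 to 0.31), and those of PLAUR 0.29 (0.21 to 0.37) and 0.41 (0.33 to 0.49), the knockdown first. No one of them reached 1.5-fold. The ratio of PLAU to PLAUR per kilobase was 5.14 in the control, 4.71 in the knockdown and 4.65 in the treated library, or 2.06, 1.89 and 1.86 by the longest transcript.

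Some further genes of the plasminogen system differed more than urokinase itself. Of 11 named genes 8 had rows. In the knockdown 1 was at least 2-fold higher and 1 at least 2-fold lower, beside 3.42% and 2.94% of all genes, with a median change of -0.11. In the treated library there were 0 of each, beside 1.39% and 1.13% of all genes, and the median was -0.03. SERPINE2, protease nexin-1, a serpin that inhibits urokinase and thrombin, had 551 reads in the control, 6111 in the knockdown and 689 in the treated library. The knockdown alone stood apart, with a change of 3.14 (3.01 to 3.27), or 8.82-fold higher, and the treated library was at -0.02 (-0.18 to 0.15). Per kilobase SERPINE2 was 2.73% of PLAU in the control, 21.5% in the knockdown and 2.25% in the treated library. PLAT, the tissue-type plasminogen activator, was sparse at 30, 5 and 32 reads, and its changes were -2.67 (-4.64 to -1.54) and -0.24 (-1.01 to 0.52).

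The other plasminogen genes are receptors and cofactors, apart from the plasmin inhibitor SERPINF2. ANXA2, a cell-surface plasminogen receptor, had 43208 reads in the control, 42379 in the knockdown and 57458 in the treated library, with changes of -0.36 and 0.07. Its partner S100A10 had changes of 0.22 and 0.16. The receptor PLGRKT was at -0.04 and 0.05, and ENO1, a glycolytic enzyme that also binds plasminogen at the cell surface, at 0.00 and -0.05. LRP1, which clears protease and inhibitor complexes, was at -0.18 and -0.20, and SERPINF2, with 25, 17 and 29 reads, at -0.85 (-1.87 to 0.06) and -0.12. PLG, SERPINB2 and SERPINA5 had no row.

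MMP1 lies in the metalloproteinase cluster of chromosome 11, and those neighbours of the same family that had a row showed the same directions. MMP10, stromelysin-2, had 46 reads in the control, 0 in the knockdown and 116 in the treated library, and its centre is 18.2 kb from that of MMP1. MMP12, the macrophage elastase, had 41, 0 and 88 reads at 75.1 kb, and the collagenase MMP13 had 11, 0 and 69 reads at 155.6 kb. All 3 were unread in the knockdown and had their highest count in the treated library. Against the floor of 3 reads, MMP10 was at least 19.3-fold lower in the knockdown, MMP12 at least 17.2-fold lower and MMP13 at least 4.61-fold lower. In the treated library the change was 0.98 (0.49 to 1.52) for MMP10, 0.75 (0.21 to 1.33) for MMP12 and 2.22 (1.38 to 3.38) for MMP13. MMP13 entered the table through the treated library, since its 11 reads in the control are 0.294 CPM.

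Other genes of that region did not differ by as much. Within 3 Mb of MMP1 the table held 4 metalloproteinase genes, all at least 2-fold lower in the knockdown, beside 2.94% of all genes. It also held 12 other genes, of which 0 were at least 2-fold lower and whose changes ran from -0.53 to 0.97. In the treated library 2 of the 4 metalloproteinases were at least 2-fold higher, beside 1.39% of all genes. These were MMP1, chosen for its movements in both comparisons, and MMP13, which entered the table through the treated library. Both also enter the count in the knockdown, so nothing is read from either count. Among the 12 others 0 were higher and 1 was lower, with changes from -1.12 to 0.67. Some had the directions of MMP1 with both intervals clear of 0, among them BIRC3, an inhibitor of apoptosis named after its values were seen, with 1511, 1356 and 2820 reads and changes of -0.49 (-0.59 to -0.38) and 0.56 (0.47 to 0.65). For the 25 nearest genes whose normalized count averaged 50 or more, the median change was -0.01 in the knockdown and 0.16 in the treated library. With the 51 nearest it was -0.06 and 0.02, so the treated-library value depends on the number taken. For the other 6 genes of the group the median over 25 genes ran from -0.24 around TIMP1 to 0.08 around TIMP2 in the knockdown. In the treated library it ran from -0.08 around PLAUR to 0.07 around MMP15. TIMP1 was thus higher in the knockdown amid neighbours that were mostly lower, 20 of 25 being below 0.

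**Figure D3:**
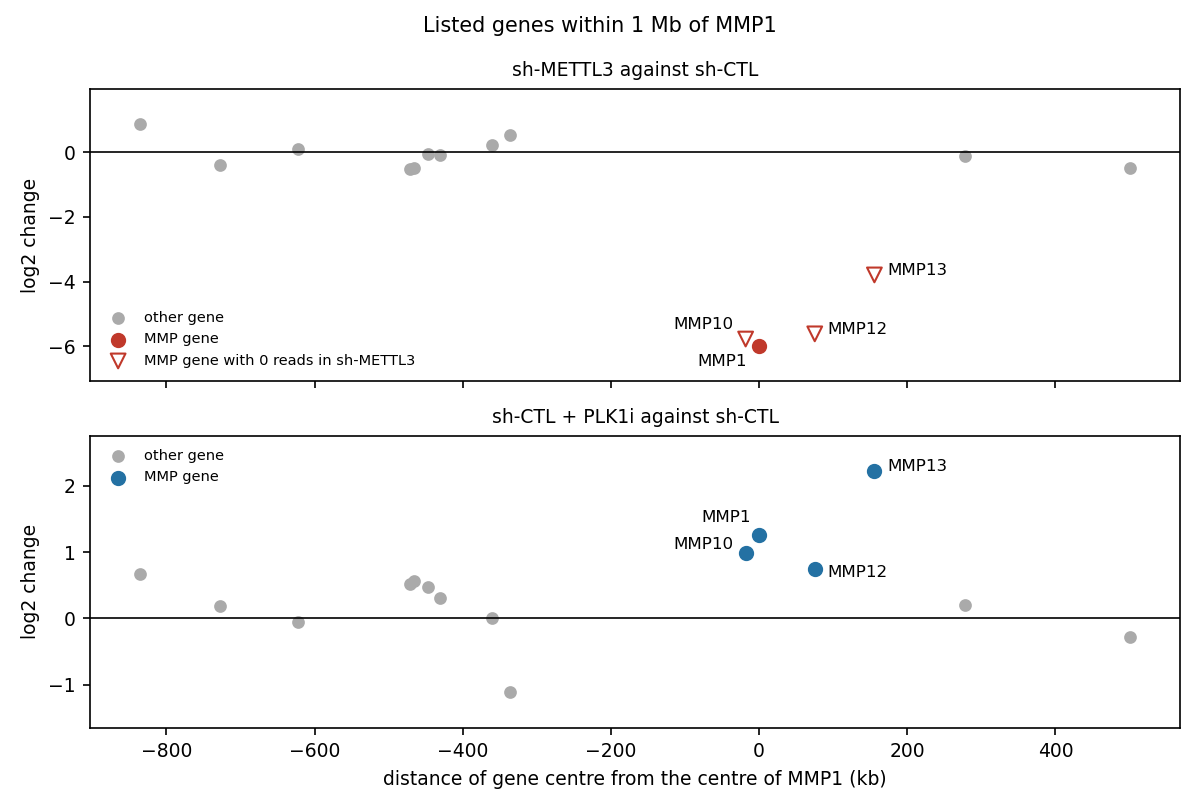
Log2 change of each listed gene within 1 Mb of MMP1 against the distance of its centre from that of MMP1 in kb, for sh-METTL3 (top) and sh-CTL + PLK1i (bottom). Open triangles mark metalloproteinases with 0 reads in sh-METTL3, whose plotted values depend on the added count of 1 and are not bounds. The 4 MMP genes lie below the other genes in the top panel and above them in the bottom panel.

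Start regions were available from RefSeq for 6 of the 9 genes, MMP14, MMP15, TIMP1, TIMP3, PLAU and PLAUR, and also for MMP10. There was no entry for MMP1, MMP2 or TIMP2, nor for MMP12 or MMP13. Each window runs from 250 bases before to 50 bases after the start on GRCh38.p14, and was searched on both strands for the AP-1 element TGAGTCA, the GC box GGGCGG and the TATA box TATAAA, none of which overlap one another in the hits given here. The AP-1 element, bound by FOS and JUN dimers, was found among these 7 genes in PLAUR only, 186 bases before the start, and 4.95% of all 35116 RefSeq windows hold it. The TATA box was found in MMP10 only, at 31 bases before the start, and 11.5% of windows hold it. GC boxes, held by 45.0% of windows, were found in MMP14, MMP15, TIMP1, TIMP3 and 1 of the 2 PLAU entries. A match describes these letters, not a bound site, and no match says nothing of a factor. The 250 bases before the start are shown for MMP10 (chr11:102780629-102780878, minus strand), a neighbour of MMP1 in the cluster, for PLAUR (chr19:43670170-43670419, minus strand), the holder of the AP-1 element, and for TIMP1 (chrX:47582186-47582435, plus strand), the most abundant gene of the group. They are written 5′ to 3′ on the strand of the gene, and capitals mark the TATA box in MMP10, the AP-1 element in PLAUR and the GC boxes, read on the opposite strand, in TIMP1.
MMP10: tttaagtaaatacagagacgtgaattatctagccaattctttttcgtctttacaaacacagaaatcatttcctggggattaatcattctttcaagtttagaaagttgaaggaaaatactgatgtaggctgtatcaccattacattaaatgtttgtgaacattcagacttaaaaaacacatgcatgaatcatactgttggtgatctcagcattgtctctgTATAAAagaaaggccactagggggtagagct
PLAUR: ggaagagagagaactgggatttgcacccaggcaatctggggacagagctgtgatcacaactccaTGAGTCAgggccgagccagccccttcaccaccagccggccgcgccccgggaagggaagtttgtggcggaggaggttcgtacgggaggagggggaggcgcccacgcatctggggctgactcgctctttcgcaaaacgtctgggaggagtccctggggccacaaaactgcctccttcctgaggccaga
TIMP1: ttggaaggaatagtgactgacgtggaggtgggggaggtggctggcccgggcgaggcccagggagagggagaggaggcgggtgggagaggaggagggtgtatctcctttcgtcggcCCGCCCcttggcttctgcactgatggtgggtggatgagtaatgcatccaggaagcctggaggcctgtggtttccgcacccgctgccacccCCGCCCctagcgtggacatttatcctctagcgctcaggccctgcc

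Further metalloproteinases were few and mostly sparse. Of 19 others named, 9 had rows. In the knockdown 1 was at least 2-fold higher and 4 at least 2-fold lower, beside 3.42% and 2.94% of all genes. Those lower include MMP10, MMP12 and MMP13 of the cluster described above. The median change of -0.52 is the value of MMP24 and does not depend on how unread genes are scored. In the treated library 1, MMP13, was higher and 0 were lower, beside 1.39% and 1.13% of all genes. The median there was 0.60. Beside the cluster on chromosome 11, MMP16, a membrane-type enzyme on chromosome 8, had 72 reads in the control, 0 in the knockdown and 81 in the treated library. It was at least 30.2-fold lower in the knockdown but, unlike MMP1, at -0.17 (-0.65 to 0.31) in the treated library. MMP19 had 12, 48 and 31 reads and was the one metalloproteinase at least 2-fold higher in the knockdown, at 1.60 (0.73 to 2.72), with 0.98 (0.03 to 2.12) in the treated library. At 0.320 CPM in the control, MMP19 entered the table through libraries where it was higher. MMP24 had 111, 97 and 214 reads, with changes of -0.52 and 0.60, and MMP11, stromelysin-3 and the most abundant of these 9, had 255, 287 and 307 reads, with changes of -0.16 and -0.07. MMP17 and MMP23B had no change of 2-fold, and MMP23B has a near-identical copy in the genome, which leaves its value uncertain.

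Among relatives of the metalloproteinases that carry a disintegrin domain, calls were made in the knockdown, most of them on genes with few reads. Of 12 ADAM genes 8 had rows, with 2 at least 2-fold higher in the knockdown, 0 lower and 0 of either kind in the treated library, beside the 3.42% of all genes called higher and 2.94% called lower in the knockdown. These were ADAM23, an adhesion protein that lacks a working protease site, at 18 reads in the control, 137 in the knockdown and 33 in the treated library and a change of 2.54 (1.88 to 3.39), and ADAM19 at 16, 49 and 22 reads and 1.24 (0.44 to 2.20). The abundant sheddases ADAM9, ADAM10 and ADAM15 were within -0.33 to 0.19 in both comparisons. Of 19 ADAMTS genes 6 had rows, with 2 higher and 1 lower in the knockdown and 0 of either kind in the treated library. Over all genes, 1.39% were called higher and 1.13% lower in the treated library. ADAMTS14, a procollagen N-propeptidase, had 123, 57 and 135 reads and a change of -1.42 (-1.92 to -0.98) in the knockdown, and ADAMTS10 and ADAMTS17 were at 1.32 and 1.20 from 16 and 12 reads in the control. ADAM19, ADAM23, ADAMTS10 and ADAMTS17 were all under 0.503 CPM in the control. Each thus entered the table through a library where it was higher, so nothing is read from the higher calls. ADAMTS4, an aggrecanase, had 451, 485 and 999 reads, with changes of -0.23 and 0.81, and ADAMTS7 was at 0.18 and -0.42.

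Intracellular and membrane proteases were listed with their inhibitors, and the same shares of all genes apply. Of 13 convertases, membrane serine proteases and their inhibitors 5 had rows and 0 were called in either direction in either comparison. FURIN, which cuts the propeptide of MMP14, had 1694, 1536 and 2285 reads, with changes of -0.47 (-0.57 to -0.37) and 0.09 (-0.00 to 0.18), and PCSK7 and SPINT2 were within -0.25 to 0.22. Of 13 cathepsins 10 had rows and 1, CTSO, was at least 2-fold higher in the knockdown, from 37 to 125 reads and by 1.40, with 0 called in the treated library. CTSD, CTSA and CTSC, the cathepsins with the highest mean normalized counts, were within -0.12 to 0.22. Of 8 cystatins 2 had rows. CSTB, an inhibitor of cysteine cathepsins, had 7002 reads in the control, 18401 in the knockdown and 9638 in the treated library, with changes of 1.06 (1.02 to 1.10) and 0.12 (0.08 to 0.16). It was the 1 cystatin called. CST3, the secreted cystatin C, was at 0.26 and 0.11.

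Genes known to induce or partner these proteases were listed as well. Of 12 named 8 had rows, with 1 at least 2-fold higher in the knockdown, beside 3.42% of all genes. In the treated library 0 were called, beside 1.39% of all genes higher and 1.13% lower. The gene called was ITGB3, the beta chain of a vitronectin-binding integrin that associates with the urokinase receptor, at 36, 272 and 43 reads and a change of 2.56 (2.08 to 3.13). HBEGF, a growth factor shed from the cell surface and also named after its values were seen, had 491, 544 and 1173 reads, with changes of -0.18 and 0.91 (0.76 to 1.07). CD44, which binds hyaluronan and docks metalloproteinases at the surface, ITGB1 and the metalloproteinase inducer BSG were within -0.10 to 0.25 in both comparisons.

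Transcription factors known to bind at metalloproteinase and PLAU promoters were listed too, of the AP-1 and ETS families together with the Runt factor RUNX2, and all 13 had rows. In the knockdown 0 were at least 2-fold higher or lower, beside 3.42% and 2.94% of all genes, with a median change of -0.23. In the treated library 2 were higher and 0 lower, beside 1.39% and 1.13% of all genes, and the median was 0.19. FOSB had 46 reads in the control, 36 in the knockdown and 329 in the treated library, so that it stood far above both other libraries after treatment, with changes of -0.67 (-1.36 to -0.02) and 2.48 (2.05 to 2.98). FOS had 244, 486 and 638 reads and was higher in both, by 0.66 (0.44 to 0.89) and 1.04 (0.83 to 1.26). FOSL1, the most abundant by normalized count, had 6173, 9914 and 12336 reads, with changes of 0.35 and 0.66. FOSL2 was at 0.20 and -0.00, ETV5 at -0.25 and 0.14, and RUNX2, given as the Runt factor of the list, at -0.30 and 0.11. The JUN genes, ETS1, ETS2, ETV1 and ETV4 were named after their values were seen. JUN was at 0.34 and 0.94, JUNB at -0.44 and 0.39, and JUND at -0.23 and 0.19. ETS1 was at 0.77 and 0.42, and ETS2 at -0.62 and 0.15. ETV4 was at -0.16 and -0.01, while ETV1 was lower in both, at -0.34 (-0.50 to -0.19) and -0.67 (-0.84 to -0.51). Whether these factors had a part in the level of MMP1 was not tested.

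**Figure D4:**
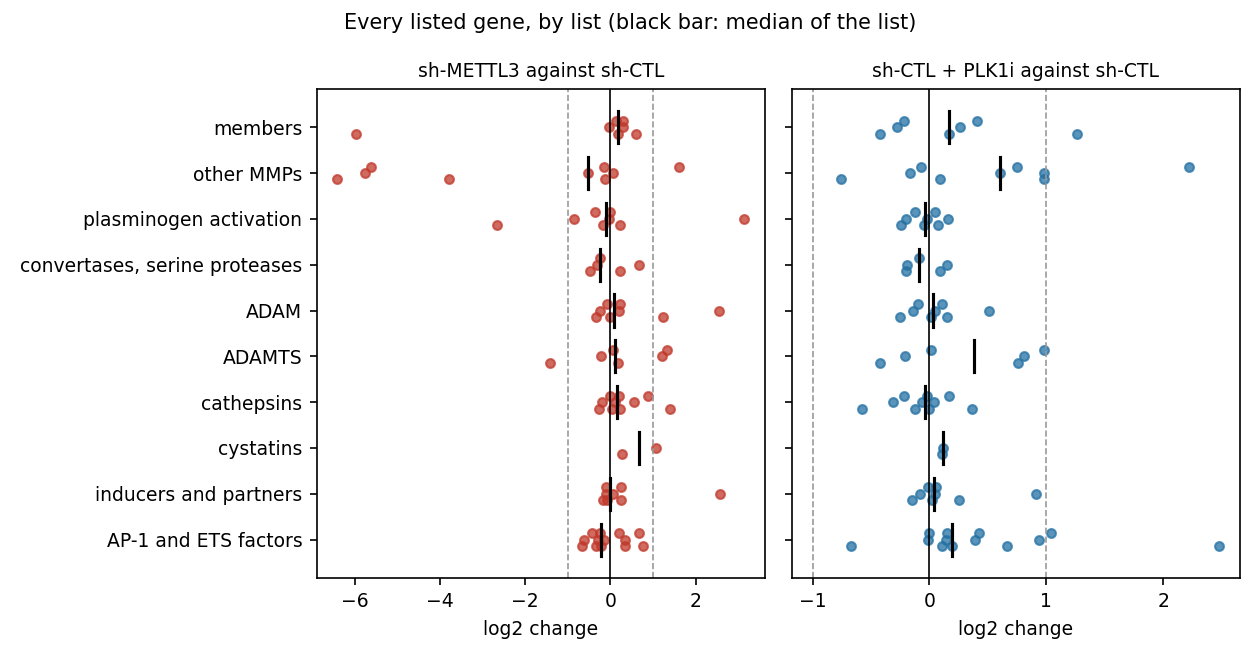
Log2 change of every listed gene in sh-METTL3 (left) and sh-CTL + PLK1i (right) against sh-CTL, with 1 point per gene, a black bar at the median of each list, dashed lines at 2-fold and different horizontal scales. Genes with 0 reads in sh-METTL3 are drawn at a value that depends on the added count of 1. The median bars lie between the dashed lines for all lists, and the widest spread in the left panel is among the metalloproteinases.

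The genes whose pair of changes lay nearest to that of MMP1 were sought among 12231 others that had a symbol and a normalized count averaging 50 or more, by straight-line distance over the 2 comparisons, which share a control. MMP10 was at a distance of 0.34, which rests on the count of 1 added to its 0 reads in the knockdown. With an added count of 0.5 that distance was 0.72, and with the 4 of the deposited values it was 1.54, so that MMP10 moved from rank 1 to rank 6 and HTR7, a serotonin receptor gene, was nearest at 1.13. These 2 alternatives were chosen after seeing the data, and MMP10 has no settled rank. TPD52L1, with 431 reads in the control, 6 in the knockdown and 543 in the treated library, was at 1.3, PTPRK with 173, 2 and 209 reads at 1.34, the matricellular growth factor gene CCN2 with 350, 13 and 563 reads at 1.35, and PDLIM1 with 1766, 71 and 2536 reads at 1.48. These 4 genes stayed among the nearest 5 under both alternatives. TPD52L1, PTPRK, CCN2 and PDLIM1 were like MMP1 in the knockdown, yet their changes in the treated library were between -0.07 and 0.34. TPD52L1, PTPRK and CCN2 lie in one stretch of chromosome 6, from 125440195 to 132272512, so they may not be separate cases. PDLIM1 is on chromosome 10.

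Some markers of mesenchymal cells and fibroblasts were, like MMP1, lower in the knockdown, and others were not. Of 5 mesenchymal markers 3 had rows, with summed normalized counts of 248018 in the control, 188702 in the knockdown and 250714 in the treated library. Most of that came from VIM, with changes of -0.40 and 0.01, and CDH2 and FN1 had no row. ZEB1, a repressor of epithelial genes like SNAI2, was higher in both, with 2510, 3752 and 4169 reads and changes of 0.25 (0.18 to 0.32) and 0.39 (0.32 to 0.46). SNAI2 itself had 289, 20 and 493 reads, with changes of -4.11 (-4.92 to -3.53) and 0.43 (0.22 to 0.64). Of 9 fibroblast markers 4 had rows, with sums of 52163, 41116 and 41443 that were largely COL1A2, at -0.33 in both comparisons. COL3A1, a fibrillar collagen that MMP1 can cut, had 527, 46 and 411 reads and a change of -3.82 (-4.32 to -3.41) in the knockdown, and COL1A1 had 34, 6 and 36 reads, whereas ACTA2 was at 0.22 (-0.22 to 0.68) with 72, 106 and 77 reads. The defining fibroblast markers DCN, LUM, PDGFRA, PDGFRB and THY1 had no row. The part of these differences in the level of MMP1 was not tested, and fewer cells with a transcript cannot be told apart from less of it per cell.

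Overlapping genes could bear on these counts, because whether the counting used strand was not given in the sources used here. WTAPP1 lies opposite MMP1 and MMP10 and had no row. SYN1, opposite TIMP1, had 43, 27 and 44 reads, C10orf55, opposite PLAU, had 48, 96 and 53, and CEP295NL, on the strand of TIMP2, had 31, 74 and 123. Each of those counts is small beside that of the gene it overlaps.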

How the data were processed

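Total RNA (ISOGEN) was made into libraries with the TruSeq stranded mRNA kit. The submitters' processing notes name FastQC 0.11.9, STAR 2.7.10, RSEM 1.3.3 and hg19. The deposited table holds log2 values, which the authors computed from scaled reads. After 2 to the power of each value, minus 4, all values under 2000 reads lay within 0.1 of whole multiples of 1.17 (sh-CTL), 0.927 (sh-METTL3) or 0.921 (sh-CTL + PLK1i), and were taken as reads. In 674 symbol cells the gene ID followed the symbol and was dropped. Changes are differences of log2(normalized count + 1), and a call is 2-fold. Intervals are exact Clopper-Pearson (95%) for the ratio of normalized counts without the added 1, and cover counting error only. The steps were tested on simulated data. Positions are from GENCODE 44 lifted to GRCh37. Python 3.11.15, numpy 2.4.6, pandas 2.3.3 and scipy 1.17.1 were used. Members and lists were chosen with earlier results of these data known. Named were all members, METTL3, listed genes at 2-fold with a mean of at least 10, the 3 highest by mean in each list, the plasminogen list and the 5 genes nearest to MMP1, and others where said; 1 gene of the plasminogen list is not reported here and was left out of its counts. Alternatives changed the pseudocount, scaling, filter, threshold, gene length and neighbour number.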

Additional observations from a re-analysis of the deposited data

How the results depend on the processing

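Of 641 alternative values, 588 stayed within the allowed range, 53 moved and 0 reversed. For the members, 97 of 98 changes stayed, and none changed sign. The exception was TIMP1 in sh-METTL3, 0.26 when centred on the 500 genes of like level. The change of MMP1 in sh-METTL3 ran from -6.10 with a pseudocount of 0.5 to -5.36 as the difference of the deposited values, and in sh-CTL + PLK1i from 1.24 to 1.26. No scaling moved the median of all genes by over 0.021. With a 4-fold threshold 0 members were higher in sh-CTL + PLK1i, and with a 1.5-fold threshold 1 member, MMP14, was higher in sh-METTL3. Over all genes, 512 were higher and 440 lower in sh-METTL3, and these became 250 and 230 at a mean of at least 50, 1160 and 1001 at 1.5-fold, and 124 and 141 at 4-fold. In sh-CTL + PLK1i, 208 higher and 169 lower became 58 and 31, 594 and 599, and 34 and 18. With a pseudocount of 0.5, the other metalloproteinases called higher in sh-CTL + PLK1i went from 1 to 2, with MMP19, and the ADAMTS genes from 0 to 1, with ADAMTS17. By the longest transcript, the control levels per kilobase of PLAUR and TIMP2 went from 510 to 1413 and from 3352 to 5700. No paired analysis was possible because each group held 1 library, and for the same reason no replicate could be left out. Depth limits MMP13, PLAT, MMP19 and the other genes with under 50 reads in sh-CTL, and the 5 reads of MMP1 in sh-METTL3 leave its fold uncertain.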
